A study of Mus musculus with 19 samples.

Results

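Intergenic peaks that lie outside annotated repeats were taken from 19 chromatin immunoprecipitation (ChIP-seq) peak lists of the protein SPEN in cells of the mouse testis. A peak counted when its deposited annotation began with intergenic and its detailed annotation named neither a CpG island nor a repeat element, and only chromosomes 1 to 19 were used. Of 63839 peaks on these chromosomes, and 80795 in all, 12222 met the rule. The 16 lists made with a SPEN antibody held 11009 of them and the 3 background lists 1213. Of the 11009 peaks, 6324 shared no base with any peak of a background library and are called outside background.

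The cells came from FVB/N males of 10 to 16 weeks and were kept at 32 °C before any heat shock. In mixed testicular cells, an antibody to the N-terminal part of SPEN was used on untreated cells, on cells heated to 38 °C for 15 min, and on cells at 2 h of recovery from 30 min at 38 °C. An antibody to an internal part was used on untreated testicular cells, on cells heated to 38 °C or 43 °C for 15 or 30 min, and on cells at 2 or 4 h of recovery from 30 min at either temperature. In a population enriched in spermatocytes, of which up to 80% were spermatocytes, the internal antibody was used without heat, right after 30 min at 43 °C, and when recovery had lasted 2 or 4 h. The background libraries were an IgG precipitation and an input of testicular cells and an input of spermatocytes, each labelled as a mix. Each library combined 5 to 6 precipitations of chromatin sheared to 100 to 500 bp, so each condition had 1 library and no value below has a replicate error. The internal antibody gave far more peaks in untreated testicular cells (the long testicular list) and in spermatocytes at 4 h of recovery (the long spermatocyte list) than in any other state. Peak lists hold no expression values, so the enrichment in spermatocytes could not be checked against markers.

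SPEN is a large RNA-binding protein of the nucleus that brings histone deacetylase corepressors to chromatin. It is known as a corepressor partner of RBPJ, the DNA-binding protein of the Notch pathway, and as a silencing factor on the inactive X chromosome. Intergenic DNA outside repeats is mostly single-copy sequence and holds enhancers and insulators, but it also includes young tandem duplications of genes, such as clusters of zinc finger, vomeronasal receptor and immunoglobulin genes, which repeat annotation does not mark. Reads from near-identical copies cannot be placed with certainty, and how the authors' mapping treated them is not given in the sources used here.

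Few of these peaks lay at a gene start, which is largely set by the rule, since peaks annotated to promoters fall outside it. Promoter windows from RefSeq (GRCm38.p6, 250 bases before to 50 after each start) were overlapped by 166 of the 12222 peaks (1.36%), on 101 of 31396 windows (0.322%) and 88 genes. Of these genes, 76 have a provisional name that begins with Gm or LOC. The rule bears on this number too, and the share of such names over all genes is not given here. Like windows recurred among the 101: of 100 distinct sequences, 32 aligned with another over at least 150 bases at 75% identity or more. The next 6 windows are from 1 cluster on chromosome 13, between 65 and 67 Mb, where 12 of 34 windows held such a peak. They are shown because they are alike and each was overlapped by such a peak, but the letters are those of the gene starts and not of the peaks. The highest-scoring peak covered 47 of the 300 bases at Gm17353, 89 at Gm45966, 144 at Zfp640, 213 at Gm46428, 229 at Gm46425 and all 300 at Gm31714. Capitals mark a run of 27 bases that all 6 contain, whether or not a peak covers it.
Zfp640 (chr13:66680754-66681053, minus strand): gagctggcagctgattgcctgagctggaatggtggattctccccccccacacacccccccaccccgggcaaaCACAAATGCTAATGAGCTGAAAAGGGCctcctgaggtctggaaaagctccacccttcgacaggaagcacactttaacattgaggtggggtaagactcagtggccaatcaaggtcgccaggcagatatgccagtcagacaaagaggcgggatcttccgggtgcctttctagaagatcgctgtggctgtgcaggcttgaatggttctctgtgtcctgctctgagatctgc
Gm17353 (chr13:65896933-65897232, plus strand): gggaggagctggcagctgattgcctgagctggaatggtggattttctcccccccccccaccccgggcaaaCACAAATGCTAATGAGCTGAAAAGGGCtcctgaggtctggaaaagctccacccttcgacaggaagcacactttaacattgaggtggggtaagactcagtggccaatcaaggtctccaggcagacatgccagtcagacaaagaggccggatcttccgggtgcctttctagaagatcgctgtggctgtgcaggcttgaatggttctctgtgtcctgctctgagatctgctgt
Gm31714 (chr13:65415073-65415372, minus strand): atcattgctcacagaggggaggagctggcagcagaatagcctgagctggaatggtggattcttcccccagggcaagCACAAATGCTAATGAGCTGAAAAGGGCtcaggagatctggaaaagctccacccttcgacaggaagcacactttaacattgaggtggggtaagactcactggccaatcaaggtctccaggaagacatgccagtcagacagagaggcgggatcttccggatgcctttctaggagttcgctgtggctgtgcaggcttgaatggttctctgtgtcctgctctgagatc
Gm46425 (chr13:65950339-65950638, plus strand): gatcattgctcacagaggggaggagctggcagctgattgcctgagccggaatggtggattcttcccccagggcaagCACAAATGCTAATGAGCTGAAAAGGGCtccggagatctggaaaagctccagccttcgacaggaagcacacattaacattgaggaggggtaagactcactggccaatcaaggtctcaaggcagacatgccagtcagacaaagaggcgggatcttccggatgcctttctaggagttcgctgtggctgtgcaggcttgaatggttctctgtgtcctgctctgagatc
Gm46428 (chr13:66519416-66519715, plus strand): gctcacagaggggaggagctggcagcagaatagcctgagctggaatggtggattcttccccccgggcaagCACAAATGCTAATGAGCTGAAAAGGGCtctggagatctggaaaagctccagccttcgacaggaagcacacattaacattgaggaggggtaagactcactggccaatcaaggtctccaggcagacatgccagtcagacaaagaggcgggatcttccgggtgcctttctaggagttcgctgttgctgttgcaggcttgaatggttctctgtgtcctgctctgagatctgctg
Gm45966 (chr13:66588919-66589218, plus strand): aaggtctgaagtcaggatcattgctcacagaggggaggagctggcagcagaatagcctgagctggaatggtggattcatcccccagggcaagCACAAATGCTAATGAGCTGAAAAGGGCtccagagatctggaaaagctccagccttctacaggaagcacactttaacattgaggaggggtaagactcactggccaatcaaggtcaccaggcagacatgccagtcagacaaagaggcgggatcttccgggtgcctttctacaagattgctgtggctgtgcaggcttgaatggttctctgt
Over the aligned bases, the identity to the window of Zfp640, a zinc finger gene, was 95.7% for Gm17353, 88.6% for Gm46425, 88.3% for Gm31714, 87.9% for Gm45966 and 87.7% for Gm46428. The calls differed between these copies. The Gm31714 window had intergenic peaks outside repeats in 4 SPEN libraries and in no background library, with scores of 282.35 in untreated testicular cells and 292.26 in spermatocytes at 4 h of recovery with the internal antibody. The windows of Gm17353 and Gm46425 had them in 8 SPEN libraries each, but also in 1 background library each, the testicular input for Gm17353 (98.21) and IgG for Gm46425 (65.55). The authors' peak score has a minimum of 50 in each list and is used here to describe and rank peaks of the same list. Zfp640 itself had weak peaks in 3 SPEN libraries, at 70.21 and 56.27 in untreated testicular cells with the N-terminal and the internal antibody, and at 64.21 after 15 min at 38 °C with the internal antibody.

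Among windows with no background peak of this class, the start of LOC115490388 on chromosome 6 was overlapped in the most SPEN libraries, 9 of 16, and it is shown for that reason. Capitals mark its 3 copies of GGGCGG, the GC box that Sp-family factors bind. 
LOC115490388 (chr6:3182866-3183165, plus strand): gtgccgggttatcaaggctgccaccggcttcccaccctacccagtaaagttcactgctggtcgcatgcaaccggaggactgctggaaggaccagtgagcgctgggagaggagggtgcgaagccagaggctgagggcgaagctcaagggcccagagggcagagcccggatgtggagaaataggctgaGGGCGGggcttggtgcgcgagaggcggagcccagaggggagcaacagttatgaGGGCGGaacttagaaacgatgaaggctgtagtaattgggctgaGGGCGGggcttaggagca
At this window 5 of the 9 peaks lay outside background. The highest, with a score of 777.15 in the long testicular list, was wider than the window and reached a background peak beyond it. Spermatocytes at 4 h of recovery had a score of 558.53 there, in a peak that also touched background. The GC content of this window was 62%, against a median of 52.3% over the 101 windows and 53% over all windows.

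Motifs were counted as exact words on both strands in the 101 windows and in all 31396. The RBPJ word TGGGAA or TTCCCA was in 21.8% of the 101 windows (exact 95% interval 14.2 to 31.1%) and in 25.3% of all. The CCAAT word, read as CCAAT or ATTGG, was in 43.6% (33.7 to 53.8%) and in 37.3% of all. The GC box, GGGCGG or CCGCCC, was in 21.8% (14.2 to 31.1%), against 36.0% of all. Peaks annotated to CpG islands or promoters fall outside the rule, so this last contrast is partly set by it. A heat shock element of 3 units, GAANNTTCNNGAA or TTCNNGAANNTTC, was in 0 of 101 windows, which allows a share of up to 3.59%, and in 0.618% of all. Words of different motifs can share letters at their ends, such as the GAA of TGGGAA and of the heat shock element, and a match describes these letters only.

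With the internal antibody, untreated testicular cells had 3968 intergenic peaks outside repeats and spermatocytes at 4 h of recovery had 1702. The other 14 SPEN lists had 302 to 579 each, and the background lists 364 for IgG, 492 for the testicular input and 357 for the spermatocyte input. The longest lists had the lowest share of this class: 14.6% of the chromosome 1 to 19 peaks in untreated testicular cells (exact 95% interval 14.2 to 15.0%, counting error only, as for all intervals here) and 18.7% in spermatocytes at 4 h (17.9 to 19.5%). The other 14 lists ranged from 20.3% to 26.4%, and the background lists from 23.9% to 25.1%. The mean share was 22.8 ± 2.94% in the 16 SPEN libraries and 24.7 ± 0.667% in the 3 background libraries (SD over libraries), a difference of -1.87 points that did not pass an exact permutation test over libraries (two-sided, adjusted p = 0.429 over 3 such tests). It was 21.6 ± 2.28% in the 4 spermatocyte libraries and 23.2 ± 3.11% in the 12 testicular ones, a difference of -1.62 points (exact permutation, adjusted p = 0.429). Both tests compare sets of libraries of different heat states, not conditions. Paired by heat state, a comparison added after seeing the data, spermatocytes and testicular cells with the internal antibody had 21.3% and 14.6% untreated, 22.1% and 24.1% after 30 min at 43 °C, 24.2% and 23.4% at 2 h, and 18.7% and 24.0% at 4 h of recovery. Spermatocytes were higher in 2 of 4 pairs, with a mean difference of 0.040 points (exact sign-flip permutation, adjusted p = 1, where 4 pairs cannot go below 0.125).

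**Figure D1:**
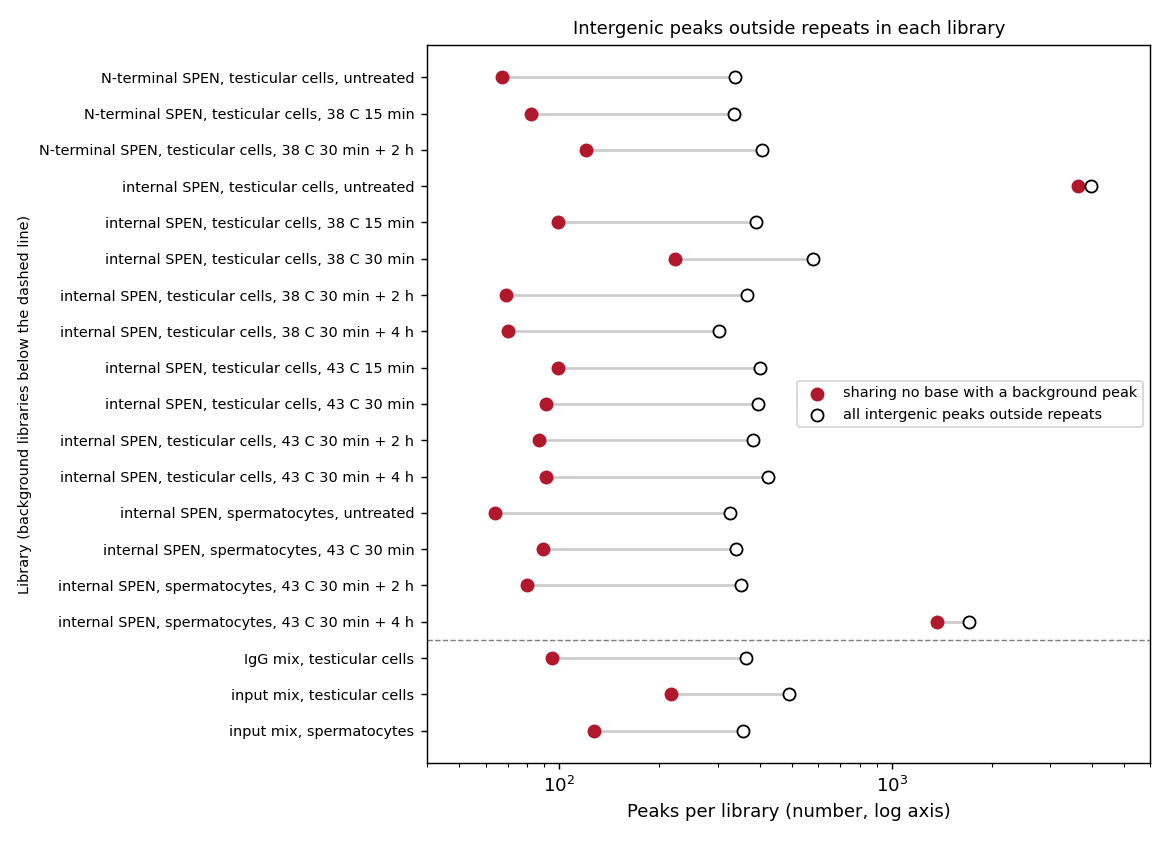
Number of intergenic peaks outside repeats in each library (open circles) and of those that share no base with a background peak (filled circles), on a log axis; a background library was set against the other 2. Untreated testicular cells with the internal antibody (3623 of 3968 outside background) and spermatocytes at 4 h of recovery (1371 of 1702) lie far to the right of the other 14 SPEN lists, whose filled circles lie between 64 and 222.

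In most lists the larger part of these peaks coincided with a background peak. With the N-terminal antibody in testicular cells, peaks outside background were 67 of 337 in untreated cells (19.9%), 82 of 335 after 15 min at 38 °C (24.5%) and, 2 h into recovery, 120 of 407 (29.5%). Over all chromosome 1 to 19 peaks of the same lists the shares were 24.5%, 27.5% and 32.9%. With the internal antibody in untreated testicular cells 3623 peaks were outside background (91.3%, interval 90.4 to 92.2%), against 94.6% of all peaks. These 4 lists thus had a lower share among intergenic peaks outside repeats than among all their peaks.

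The internal antibody gave 99 such peaks (25.3%) after 15 min at 38 °C, 222 (38.3%) after 30 min, 69 (18.8%) at 2 h and 70 (23.2%) at 4 h of recovery, beside 22.5%, 42.5%, 20.2% and 23.7% of all peaks in these lists. At 43 °C it gave 99 (24.7%) after 15 min, 91 (22.9%) after 30 min, 87 (22.7%) at 2 h and 91 (21.4%) at 4 h, beside 22%, 22.7%, 23.7% and 23.6% of all peaks. None of these 8 lists from heated testicular cells stood near the untreated one. In spermatocytes the numbers were 64 (19.7%) in untreated cells, 89 (26.3%) after 30 min at 43 °C, 80 (22.8%) at 2 h and 1371 (80.6%, interval 78.6 to 82.4%) at 4 h of recovery, beside 23%, 22.5%, 20.5% and 85.1% of all peaks.

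The background libraries gave shares that overlap those of the 14 shorter SPEN lists, which were 18.8% to 38.3% (median 23.1%). Each background library was set against the other 2, and each SPEN list against all 3, so the measures are unlike. Fewer lists to set against can only raise a share. Outside the others lay 95 of 364 peaks of IgG (26.1%), 216 of 492 of the testicular input (43.9%) and 127 of 357 of the spermatocyte input (35.6%), beside 24.7%, 38.5% and 30.1% of all their peaks. The numbers in the 14 shorter SPEN lists, 64 to 222, span the 95 to 216 found without a SPEN antibody, with the same limit. Over the 16 SPEN libraries, the share outside background averaged 32.0 ± 21.6% for intergenic peaks outside repeats and 33.6 ± 23.1% for the other peaks of the same libraries (SD). The difference of -1.59 points was positive in 5 of 16 libraries and did not pass an exact sign-flip permutation test (two-sided, adjusted p = 0.104 over 4 such tests). Against intergenic peaks in repeats alone, a comparison chosen after seeing the data, it was -3.36 points (same exact test, adjusted p = 0.0025).

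Numbers under heat shock differed between antibodies and populations. For testicular cells and the internal antibody, the 8 heat-shocked libraries had a median of 91 peaks outside background, against 3623 in the untreated library, an untreated to heat-shocked ratio of 39.8. For the N-terminal antibody, heat-shocked libraries had a median of 101, against 67 in the untreated one, a ratio of 0.663, and in spermatocytes the median was 89, against 64, a ratio of 0.719. Over all chromosome 1 to 19 peaks outside background these ratios were 69.6, 0.703 and 1.02, in the same order. Across the 13 heat-shocked and 3 untreated libraries the mean log2 number was 6.86 ± 1.15 and 7.96 ± 3.34 (SD), a difference of -1.10 (exact permutation, two-sided, adjusted p = 0.429). Without the untreated internal library of testicular cells that difference was 0.83, with the opposite sign (exact permutation, adjusted p = 0.0571). All 13 heat-shocked numbers then lay above the remaining untreated ones, 67 and 64. With full separation and so few libraries this adjusted p could go no lower, so the test could not pass and decides nothing. Sequencing depth is unknown, so a longer list can hold more binding or more reads, and these cannot be told apart.

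Peaks called after heat shock were partly at positions of the matching untreated list. For the internal antibody in testicular cells at 38 °C, 27 of 99 (27.3%) were there after 15 min, 132 of 222 (59.5%, interval 52.7 to 66.0%) after 30 min, 10 of 69 (14.5%) at 2 h and 14 of 70 (20.0%) at 4 h of recovery, beside 27.1%, 55.2%, 22.6% and 20.1% of all peaks outside background. At 43 °C these were 26 of 99 (26.3%), 20 of 91 (22.0%), 20 of 87 (23.0%) and 22 of 91 (24.2%) in the same order of times, beside 28.8%, 20.9%, 21.4% and 23.7%. The library of 30 min at 38 °C held the highest share by both measures. With the N-terminal antibody, 14 of 82 (17.1%) after 15 min and 15 of 120 (12.5%) at 2 h of recovery lay in the untreated list, beside 22.6% and 20.6% of all peaks. In spermatocytes these were 14 of 89 (15.7%) after 30 min at 43 °C, 11 of 80 (13.8%) at 2 h and 26 of 1371 (1.90%) at 4 h, beside 16.5%, 12.8% and 1.26% of all peaks. In the lists of the internal antibody, the share of all peaks lay inside the counting interval of these peaks. With the N-terminal antibody at 2 h of recovery it did not, with an interval of 7.17 to 19.8%.

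Loci were made by merging intergenic peaks outside repeats that shared a base. With the internal antibody in testicular cells no locus was in all 8 heat-shocked libraries and lacking in the untreated one, and 3456 of the 3619 untreated loci (95.5%) were in no heat-shocked library, beside 0 loci and 97.0% over all peaks outside background. With the N-terminal antibody 9 of 237 loci (3.80%) were in both heat-shocked lists but absent from the untreated list, beside 51 of 964 (5.29%) over all peaks. Of the untreated loci, 48 of 67 were in the untreated library alone (71.6%, interval 59.3 to 82.0%), beside 57.8% over all peaks. In spermatocytes 7 of 1508 loci (0.464%) were in each of the 3 heat-shocked lists but absent from the untreated list, beside 20 of 8361 (0.239%) over all peaks. Of the untreated loci, 33 of 63 were in the untreated library alone (52.4%, 39.4 to 65.1%), beside 62.7% over all peaks.

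Intergenic peaks outside repeats had lower scores and were wider than the other peaks of their lists. The median score averaged 73.7 ± 5.19 against 81.5 ± 8.46 for the other peaks, lower in 15 of 16 SPEN libraries (mean difference -7.87, exact sign-flip permutation, two-sided, adjusted p = 8.14e-05). Spermatocytes at 4 h of recovery were the exception, with a difference of 1.78. The median width averaged 242.8 ± 27.9 bp against 203.5 ± 25.7 bp, a mean difference of 39.2 bp (adjusted p = 8.14e-05, same exact test). It was wider in 15 of 16 libraries, and 2 bp narrower in the untreated internal list of testicular cells. The 3 background lists had the same contrast without a SPEN antibody, with median scores of 74.6 to 77.8 against 78.5 to 89.4 for their other peaks and median widths of 214.5 to 271 bp against 180 to 222 bp. Most peaks of the shorter SPEN lists lay at background positions that recur between lists. The 16 libraries are thus not independent, and both p-values can be too small.

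The strongest peaks of the long lists were the ones that most often coincided with background, as was the case over all peaks of these lists. In the long testicular list, the share outside background was 98.9% of peaks with scores from 50 to 60, 96.6% from 60 to 80, 83.9% from 80 to 150 and 48.9% (43.5 to 54.2%) at 150 or more. In spermatocytes at 4 h of recovery it was 96.1%, 86.8%, 66.9% and 28.3% (22.0 to 35.4%) over the same score ranges. Over all peaks the shares in these ranges were 99.1%, 98.0%, 93.7% and 59.6% in the long testicular list and 97.2%, 92.1%, 74.4% and 24.4% in spermatocytes at 4 h. Finding in other lists ran the other way. Of the peaks outside background in untreated testicular cells, 3.84% with scores from 50 to 60 and 139 of 171 (81.3%, 74.6 to 86.8%) with scores of 150 or more were in another SPEN list, against 5.17% and 55.4% of all peaks outside background in the same score ranges. In spermatocytes at 4 h these were 17.7% and 51 of 53 (96.2%, 87.0 to 99.5%), against 22.8% and 94.8% of all.

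The distance of a peak to the nearest transcription start site (TSS) is the authors' HOMER annotation. Median distances of intergenic peaks outside repeats lay between 48666 and 65161 bp in the 16 SPEN lists and between 56315 and 62734 bp in the background lists. The median was 52606 bp in the long testicular list (quartiles 19588 and 126762 bp) and 54672 bp in spermatocytes at 4 h of recovery. Averaged over the 16 SPEN libraries the median was 55385 ± 4969 bp, against 42622 ± 3216 bp for the other peaks (mean difference 12764 bp, farther in 16 of 16 libraries, exact sign-flip permutation, adjusted p = 8.14e-05). The rule itself takes out promoters and introns, so this direction is partly set by it. The libraries also share many positions, so the p-value can be too small. Set against intergenic peaks in repeats, the difference was -26641 bp (same exact test, adjusted p = 6.1e-05), so peaks outside repeats lay nearer to gene starts than those inside.

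From 52.3% to 60.1% of the peaks lay upstream of the nearest start, 4% to 6.27% within 5 kb of it and 30.9% to 39.1% beyond 100 kb in the SPEN lists. Only 185 of the 3623 peaks outside background in untreated testicular cells were within 5 kb. By score these were led by a peak 4857 bp upstream of Gm15319 (600.79), a predicted gene on chromosome 8, followed by Gm1979 (349.23, 2786 bp upstream) and Ceacam-ps1 (286.29, 3500 bp upstream), a pseudogene of a cell adhesion gene. Further down, and chosen after their values were seen, were Csf2ra (186.35, 4389 bp upstream), a receptor subunit for the growth factor GM-CSF, Mir21a (100.12, 4696 bp downstream), a microRNA gene, and H2-Q10 (126.15, 3412 bp upstream) of the major histocompatibility complex.

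**Figure D2:**
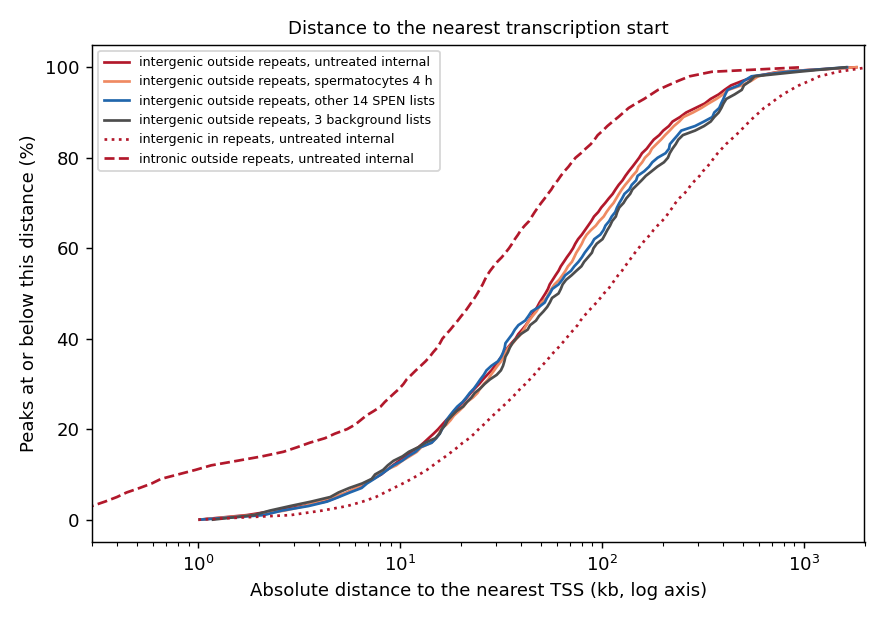
Cumulative share of peaks (y axis, percent) at or below each absolute distance to the nearest transcription start (x axis, kb, log scale) for intergenic peaks outside repeats in 4 sets of lists, and for intergenic peaks in repeats (dotted) and intronic peaks outside repeats (dashed) of the untreated internal list of testicular cells. The 4 solid curves lie close together, and the dotted and dashed curves lie to their right and left, with medians of 102507 and 24236 bp.

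The 12222 peaks were unevenly spread over the genome. Chromosome 12 held 7.61% of them in the long testicular list, 11.0% in spermatocytes at 4 h, 13.2% in the 14 shorter SPEN lists pooled and 13.3% in the background lists pooled. Over all peaks of the same sets it held 5.12%, 5.97%, 7.17% and 7.14%. Chromosome 7 was also high, with 7.56%, 9.34%, 12.6% and 11.5% in the same order, and chromosome 8, with 8.52%, 9.75%, 10.9% and 10.5%. Chromosome 15 held 3.18% and 3.00% in the 2 long lists, against 0.862% in the shorter lists and 1.07% in background. Over all peaks it held 3.66% and 3.35%, against 2.69% and 2.60%, a smaller fall in the same direction. In untreated testicular cells the density was lowest on chromosome 2, at 0.989 peaks per Mb, and highest on chromosome 13, at 2.78 per Mb, with chromosome lengths taken as the largest peak end.

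A few windows of 1 Mb held much of the shorter lists. The 10 fullest windows held 12.1% of the peaks in untreated testicular cells, 20.2% in spermatocytes at 4 h, 36.6% in the shorter SPEN lists pooled and 35.9% in the background lists pooled. With the 100 fullest windows these shares were 35.4%, 49.9%, 84.1% and 84.8%. In the pooled sets a recurring position counts once for each list that holds it. Other peaks were not ranked this way, so the concentration is not shown to be particular to this class. Of 2468 windows, 229 (9.28%) held a peak of this class from a background library. The peaks outside background also fell in those windows: in the 14 shorter SPEN lists 68.7% to 89.0% of them did, with a median of 81.3%, where the other peaks outside background did so at 20.8% to 41.8%. In the long testicular list it was 29.3% (27.8 to 30.8%), against 13.8% of other peaks, and in spermatocytes at 4 h 39.5% (36.9 to 42.2%), against 18.3%. The windows were chosen by background peaks of this class, so the contrast with other peaks is partly set by that choice. Other peaks were not set against windows with background peaks of their own classes. Sharing no base with a background peak did not place most peaks of the shorter lists away from background regions.

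**Figure D3:**
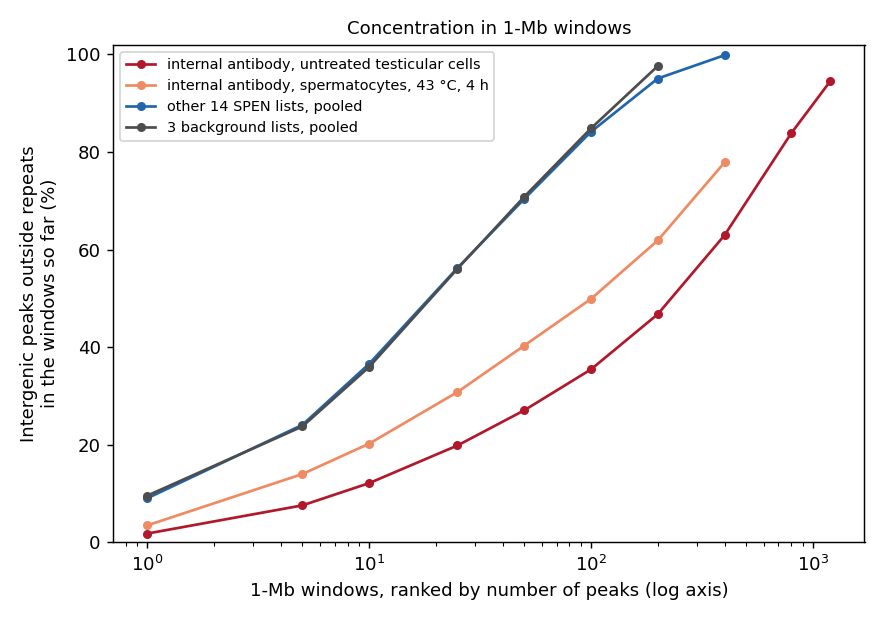
Share of intergenic peaks outside repeats (y axis, percent) held by the fullest 1-Mb windows (x axis, rank, log scale), each set ranked by its own counts. Pooled sets count a position once for each list that holds it. The curves of the 14 shorter SPEN lists and of the background lists nearly coincide (36.6% and 35.9% at 10 windows), and the long testicular list rises most slowly (12.1%).

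The fullest window was on chromosome 12 from 115 to 116 Mb, in the immunoglobulin heavy chain locus, with 181 peaks outside background from all 16 SPEN libraries beside 116 peaks of background libraries. RefSeq places 42 V segments there, the many similar gene pieces from which antibody genes are assembled. The whole Igh locus (chr12:113258768-116009954) held 857 of the 12222 peaks (7.01%). It held 1.81% of the peaks in the long testicular list and 4.99% in spermatocytes at 4 h. The 14 shorter SPEN lists had 7.76% to 12.3% there and the background lists 9.89% to 12.9%. These peaks were intergenic in the authors' annotation; with RefSeq gene models, which include Igh, 37.7% of the 12222 peaks overlapped a gene.

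The next windows by number of peaks outside background were on chromosomes 13, 8 and 7. Chromosome 13 from 66 to 67 Mb, with Zfp640 and vomeronasal receptor pseudogenes, had 157 peaks outside background from 16 SPEN libraries, 59 of them in the long testicular list, and 39 background peaks. The neighbouring window from 65 to 66 Mb, with Zfp369, had 119 and 33. Chromosome 8 from 20 to 21 Mb, with the defensin gene Defb33 and the cadherin pseudogene 6820431F20Rik, had 137 peaks outside background from 15 SPEN libraries and 41 background peaks. Chromosome 7 from 38 to 39 Mb, with the cyclin E gene Ccne1, had 89 and 37. Of the next windows, named after their values were seen, chromosome 8 from 69 to 70 Mb, with 6 genes named Zfp, had 86 and 27, and chromosome 8 from 55 to 56 Mb, with Gpm6a, Adam29 and Glra3, had 82 and 34. Chromosome 14 from 43 to 44 Mb, with the Ear and Ang genes of the ribonuclease A family, had 71 peaks outside background and 9 in background libraries.

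Shares of nearest genes by name differed from those of intergenic peaks in repeats in both directions. Genes named Gm were nearest to 14.1% of the peaks in the long testicular list (13.1 to 15.3%) and 22.3% in the shorter SPEN lists, against 9.46% and 14% of intergenic peaks in repeats of the same lists. Genes named Zfp, mostly zinc finger genes, were nearest to 2.90%, 4.29% and 5.60% in untreated testicular cells, spermatocytes at 4 h and the shorter lists, against 1.47%, 1.80% and 3.05% in repeats. Vomeronasal receptor genes were nearest to 4.20% of the peaks in the shorter lists, against 1.87% in repeats, but to 1.11%, against 1.93%, in untreated testicular cells and to 1.82%, against 2.40%, in spermatocytes at 4 h. Olfactory receptor genes, another large family, had a lower share in each set: 1.01% against 2.69% in repeats in untreated testicular cells, 1.12% against 2.50% in spermatocytes at 4 h and 2.49% against 2.84% in the shorter lists. MicroRNA genes were nearest to 10.5% of the peaks in the shorter lists, against 4.90% in repeats, and to 3.86%, against 3.65%, in untreated testicular cells. Background lists had 24.0% at Gm genes, 5.11% at Zfp genes, 3.54% at vomeronasal receptor genes, 2.47% at olfactory receptor genes and 10.6% at microRNA genes.

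Away from these windows, most peaks of the longest list were scattered. In the long testicular list, 2268 of the 3623 peaks outside background (62.6%) lay in windows with under 5 of them, and 597 were alone in their window. The 3623 peaks had 2285 nearest genes, of which 1706 had 1 peak and 68 had 5 or more; the most, 38, were nearest to Gm10324 on chromosome 13. The highest-scoring peak in a window with few others, chosen after its values were seen, lay 7997 bp upstream of Gdnf, the growth factor that maintains spermatogonial stem cells (chr15:7801226-7802877). Its score was 563.1 in the long testicular list, 122.77 after 30 min at 38 °C and 108.98 in spermatocytes at 4 h of recovery. The other 13 SPEN lists and the background lists had no peak there. Next came a locus 11954 bp from Alyref2, an mRNA export factor gene (chr1:171514971-171515894), with peaks in 7 SPEN libraries, at 402.53 in untreated testicular cells and 362 in spermatocytes at 4 h with the internal antibody and 52.21 to 79.27 in the other 5. A locus near Emid1, a gene of an extracellular matrix protein (chr11:5169722-5170525), was in 6 SPEN libraries, led by 326.24 in untreated testicular cells and 189.66 after 30 min at 38 °C.

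The gene lists held 110 genes, of which 100 are on chromosomes 1 to 19. Of these, 13 (13%) were the nearest gene of 21 peaks outside background, where 2187 of 20665 protein-coding genes in the RefSeq table (10.6%) were. All 21 were in the 2 long lists and none in the 14 shorter ones, and none lay within 5 kb of a start. The long lists held 3623 and 1371 of all 6324 peaks outside background, and 185 of the 3623 were within 5 kb. With only 21 peaks, neither absence is a result about these genes. In the Notch pathway 3 of 22 genes had such peaks, all in the long testicular list. The ligand gene Dll1 had 1 at a score of 98.17, 5746 bp upstream, the nearest to a start of the 21. Rbpj, the gene of the DNA-binding partner of SPEN, had 2 (92.97 and 73.87) more than 100 kb upstream, and the target gene Hey1 had 1 (86.02), 118840 bp upstream. Maml2, a coactivator gene of the pathway, was nearest to 2 background peaks and to none outside background.

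Of 15 genes of SPEN and its corepressors, Ctbp1, a corepressor gene, had a peak 20098 bp upstream (58.79), and Tbl1xr1, a subunit of the NCoR corepressor complex, had 2 (55.47 and 55.04) that lay 306184 and 138283 bp upstream. Of 25 heat shock genes, Bag3, a co-chaperone induced by heat, had 1 in untreated testicular cells (77.29, 26547 bp upstream), and Hspa9, the mitochondrial Hsp70, had 1 in spermatocytes at 4 h of recovery (55.93, 26988 bp upstream). No heat shock gene had a peak of this class outside background in a heat-shocked testicular library. Those libraries had only 69 to 222 such peaks each, so this absence says little.

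Among 8 spermatogonial genes, Kit, the receptor of stem cell factor in differentiating spermatogonia, had 7 peaks, each in 1 library. Untreated testicular cells with the internal antibody held 6 of them, with scores from 50.46 to 74.88, the nearest 8142 bp upstream, and spermatocytes at 4 h held 1 (80.05). Gfra1, the Gdnf receptor of spermatogonial stem cells, had 1 (55.63). The lists of meiotic prophase genes and of Sertoli cell genes had none, the spermatid genes Spata16 (69.89) and Odf1 (60.23) had 1 each, and the Leydig cell genes Cyp17a1 (52.32) and Hsd3b1 (66.28) had 1 each. Over all protein-coding genes 10.6% had such a peak, so lists this short can readily have none. The 8 genes of the X inactivation list are not on the chromosomes used here.

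Most loci were seen in a single library. The 6324 peaks outside background formed 5165 loci, of which 4520 (87.5%) were in 1 SPEN library, beside 88.7% of the 33173 loci formed by all peaks outside background. Of the 5165 loci, 645 were in at least 2, 221 in at least 3, 58 in at least 5 and 11 in at least 8. The share in at least 3 libraries was 4.28%, against 3.07% of the loci of all peaks outside background. Of the 221 loci, 154 (69.7%, 63.2 to 75.7%) were in the long testicular list, 142 (64.3%) in the long spermatocyte list and 130 in both, and 55 were in neither. Without the 2 long lists 105 loci remained in at least 3 libraries. No locus was in all 16 SPEN libraries, and the most was 11.

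Both loci found in 11 SPEN libraries lie near a small RNA gene and a pseudogene. At chr6:47772753-47773318, 20112 bp upstream of Rn4.5s, a 4.5S RNA gene, the N-terminal antibody gave scores of 69.67 without heat, 141.88 after 15 min at 38 °C and, 2 h into recovery, 75. The internal antibody gave 287.1 in untreated testicular cells, 129.67 right after 30 min at 38 °C, 70.55 when 2 h of recovery followed, and 61.64 and 53.04 at 2 and 4 h of recovery from 43 °C. In spermatocytes it gave 73.51 without heat, 68.34 after 30 min at 43 °C and, 4 h into recovery, 209.75. The locus was thus called with both antibodies, in both populations, and in untreated and heat-shocked cells, with no background peak.

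The other, chr10:52528719-52529185, and a neighbour held by 10 libraries, chr10:52529737-52530087, lie 16713 and 15837 bp from Zfa-ps, a pseudogene of an autosomal zinc finger gene. Outside background their scores were 51.27 to 181.66 and 60.03 to 165.03. In the long testicular list 1 peak with a score of 853.29 and a width of 1578 bp spanned both, but that wider peak touched a background peak and was not counted. A locus 19711 bp upstream of Zfp709, a zinc finger gene (chr8:71862203-71862515), was in 10 libraries, with 238.21 in untreated testicular cells and 145.85 in spermatocytes at 4 h with the internal antibody, and 50.04 to 103.24 in the other 8.

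The remaining loci of the 10 most shared were near Csf2ra and Purg, in 9 libraries each, and near Gm5114, Neurl3, Tmem121 and Gm5592, in 8 each. Neurl3 belongs to the neuralized family of ubiquitin ligases, whose founding member in flies acts on Notch ligands. Its locus (chr1:36287330-36288012, 14384 bp upstream) had scores of 223.86 in untreated testicular cells and 220.78 in spermatocytes at 4 h with the internal antibody, 120.21 in spermatocytes after 30 min at 43 °C and 52.94 to 85.89 elsewhere. Purg encodes a relative of the single-strand binding protein Pur-alpha, and its locus (chr8:33420280-33420605) was in all 3 N-terminal lists at 60.06, 98.1 and 67.29. The locus assigned to Tmem121 lies inside Igh (chr12:113335732-113336133). The locus near Gm5592 (chr7:41311061-41311597), at 53.29 to 82.49, was the only one of the 10 with no peak in either long list.

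**Figure D4:**
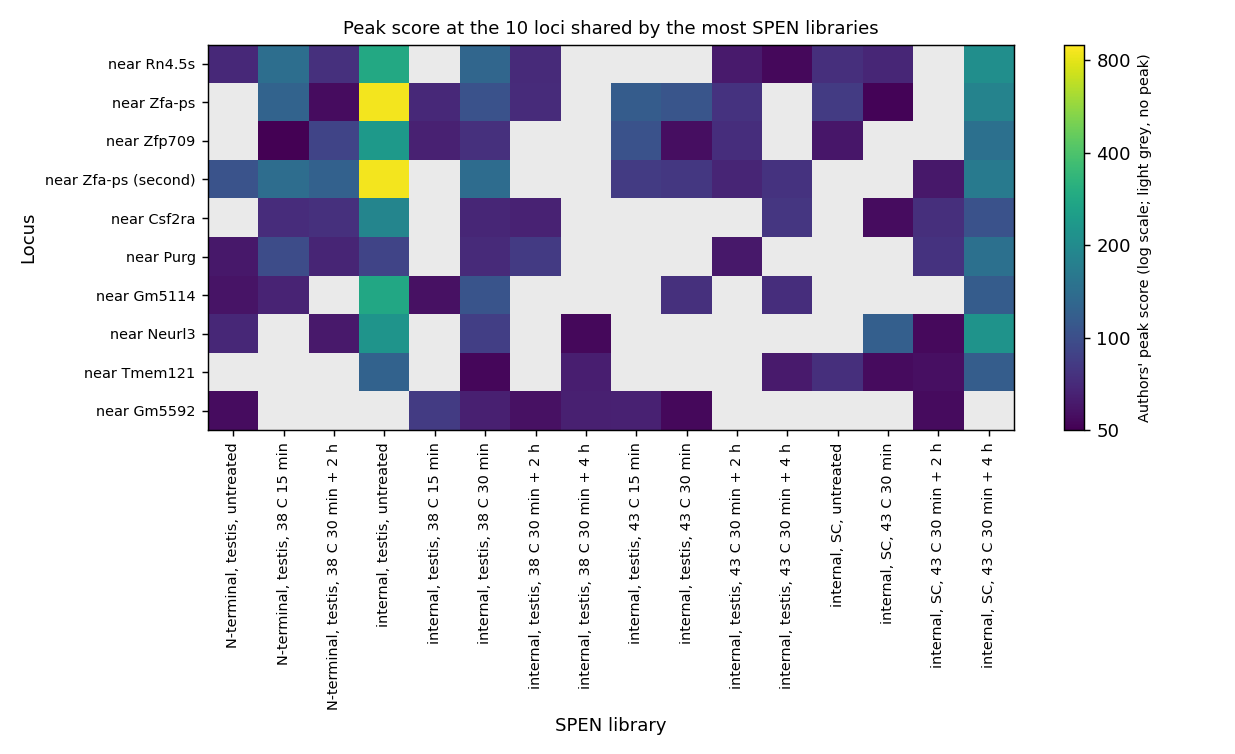
Authors' peak score (colour, log scale) in each SPEN library at the 10 loci outside background held by the most SPEN libraries; light grey marks no peak, testis stands for testicular cells and SC for the spermatocyte population. Rows run by number of libraries, and the yellow cells are the single peak of 853.29 near Zfa-ps, which touches a background peak; scores are comparable within a column.

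The share of a list found in another depends on the length of both, so it is given in each direction. Of the peaks outside background in spermatocytes at 4 h, 31.7% lay in the long testicular list, and 12% the other way, beside 34.9% and 10.5% of all peaks outside background. The 14 shorter lists had 14.5% to 59.5% (median 31.1%) of these peaks in the list of untreated testicular cells and 15.7% to 52.8% (median 28.1%) in that of spermatocytes at 4 h. Over all peaks outside background these were 20.1% to 55.2% (median 29.9%) and 13.6% to 44.3% (median 23.8%). Among the shorter lists, over 182 ordered pairs, the share was 2.86% to 35.4% with a median of 13%, against 4.76% to 35.1% with a median of 12.1% for all peaks. The library of 30 min at 38 °C gave the highest shares: 59.5% of its peaks were in untreated testicular cells, and 35.4% of those after 15 min at 38 °C with the N-terminal antibody lay in it.

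**Figure D5:**
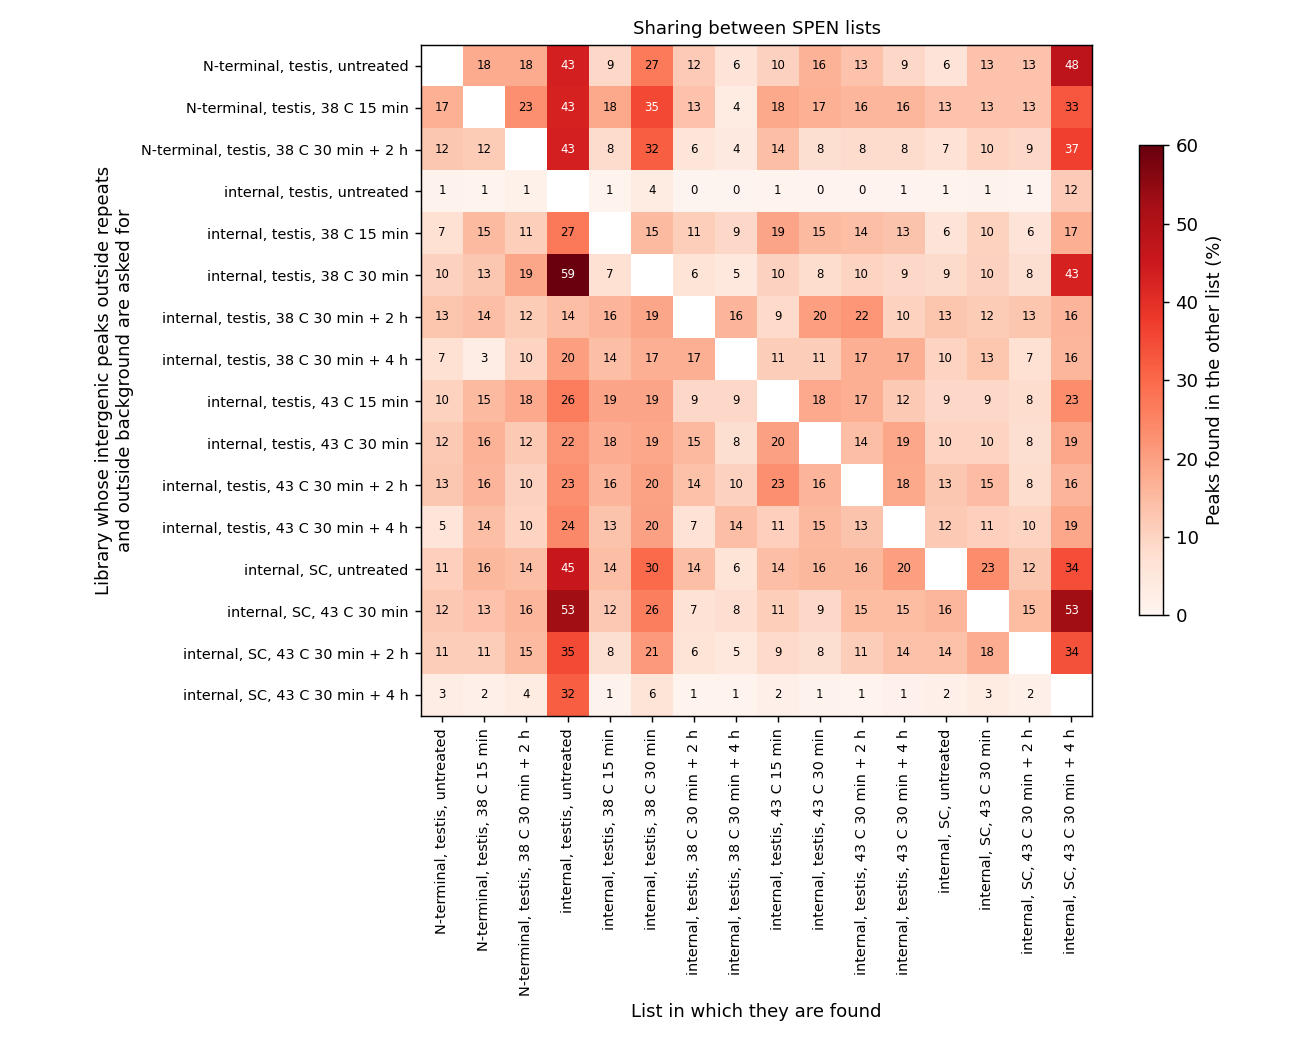
Share (percent, rounded, in cells) of the intergenic peaks outside repeats and background of the library in each row that share a base with a peak of the library in each column; testis stands for testicular cells and SC for the spermatocyte population. The 2 dark columns are the long lists, and the darkest cell is 59.5% for 30 min at 38 °C in untreated testicular cells, both with the internal antibody.

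Among peaks outside background, the first of the long lists lay on chromosomes 4, 8 and 13. Peaks that touch background reached higher scores, such as 3100 near 2010315B03Rik in the long testicular list. Outside background, the first of that list was at chr4:147124720-147125857 (771.63, nearest gene Gm13152). Peaks of 30 min at 38 °C (60.99) and of spermatocytes at 4 h (199.78) at the same place were annotated to a CpG island and so fell outside the rule. Then came chr8:20121252-20123163 (756.44), chr8:19723371-19725413 (687.15), chr8:20367162-20368957 (600.79) and chr4:145774194-145775342 (594.16). At the site with 756.44, the peaks of 30 min at 38 °C (134.98) and of spermatocytes at 4 h (433.62) were also annotated to a CpG island. So was the peak of spermatocytes at 4 h (93.98) at the site with 594.16. The sites with 687.15 and 600.79 had peaks of this class in other lists. In spermatocytes at 4 h of recovery 4 of the first 5 lay in the same part of chromosome 8, led by chr8:20367218-20369446 (568.47) and chr8:19723336-19725564 (558.71), and the other was at chr13:66625574-66626151 (424.35). The first 2 of these are the sites with 600.79 and 687.15 in untreated testicular cells. The site on chromosome 13 was in 6 SPEN libraries, with 338.74 in untreated testicular cells and 54.62 to 77.36 in the other 4.

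In the other SPEN lists the top peak outside background had a score between 88.35 and 220.37. The highest of these was near 8030423F21Rik, a non-coding RNA gene, after 30 min at 38 °C with the internal antibody, and that locus was in 7 SPEN libraries, all 3 N-terminal ones included. Top peaks of the background libraries outside the other 2 reached 96.57 in IgG, 154.99 in the testicular input and 460.85 in the spermatocyte input. The last, 231133 bp upstream of Nt5e, an ectonucleotidase gene, was also called in 6 SPEN libraries and in neither of the other background lists.

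Some background positions recurred across most lists. With background peaks kept, the 12222 peaks formed 5954 loci. Of these, 136 were in all 3 background libraries, found in a median of 14 SPEN libraries (fewest 0), and 54 were in all 19 libraries. At these 54 loci the median score was 490.63 in the long testicular list and 341.59 in the long spermatocyte list. It was 194 to 307 in the other lists. The highest scores among the 136 were 3100 at chr1:24611487-24616257 near Col19a1, a collagen gene, and at chr9:124256194-124258043 near 2010315B03Rik, then 2614.35 near Polr3k, 2444.09 near Fam107a and 2343.97 near 2810429I04Rik, counting only peaks of this class. At the last site a peak of 2619.73, after 15 min at 38 °C with the N-terminal antibody, was annotated to a repeat and so fell outside the rule. The site near 2010315B03Rik had a score of 3100 in each of the 19 libraries, with and without a SPEN antibody.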

How the data were processed

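Each of the 19 libraries has deposited peaks in a plain and an annotated file, and all 80795 peaks were the same in both. The authors' tools were Bowtie2, SAMtools and HOMER on the build mm10, per the submitters' processing notes; versions are not given in the sources used here. Peaks were called per library, per the file headers, and the peak names begin with MACS; the caller's version, threshold and control are not given in the sources used here. Scores are the deposited values of that caller, at least 50 in each list, on a scale that is not stated. Positions in bp and the signed distance to the nearest TSS are the authors' deposited HOMER annotation, which assigns a peak by its centre, so the same place can fall in another class in another list. Files hold no read totals, so depth is unknown and intervals cover the counting of peaks only.

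Sharing needed a minimum of 1 bp in common. Intervals are exact Clopper-Pearson at 95%. Tests over libraries were exact and two-sided, by sign flips within the 16 SPEN libraries or by permutation between sets of libraries, with Benjamini-Hochberg adjustment within each family and a threshold of 0.05. They were tested on simulated lists, with values drawn independently for each peak. The real libraries share many positions, most of all those of background. The sign-flip tests treat the libraries as independent, so their p-values can be too small. Promoter windows and gene models are from RefSeq GRCm38.p6, the assembly of mm10. No genome was used, so peak sequences outside promoter windows are not shown. Python 3.11.15, pandas 2.3.3, NumPy 2.4.6, SciPy 1.17.1, Biopython 1.88 and matplotlib 3.10.9 were used.

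The class of peaks, the gene lists and the tests were chosen with earlier results of these data known. Named are the 10 loci outside background in the most SPEN libraries, the 5 highest-scoring peaks of each long list, the top peak of every other library, the 5 highest-scoring loci of all 3 background libraries, the 5 fullest 1-Mb windows, and the peaks nearest to listed genes. Folder names in the file headers place the 3 N-terminal libraries in another folder than the other 16, so antibody and folder cannot be told apart. Alternatives were score, distance and list-length limits, other overlaps and background sets, and leaving out each library in turn.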

Additional observations from a re-analysis of the deposited data

Results flagged for a closer look

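The untreated to heat-shocked ratio of the number of intergenic peaks outside repeats and background ran in opposite directions between sets of libraries. In testicular cells it was 0.663 with the N-terminal antibody, where both heat-shocked libraries (82 and 120 peaks) were above the untreated one (67), and 39.8 with the internal antibody, where all 8 heat-shocked libraries (69 to 222) were below the untreated one (3623). In spermatocytes with the internal antibody it was 0.719, with all 3 heat-shocked libraries (80 to 1371) above the untreated one (64). Over all peaks outside background the spermatocyte ratio was 1.02, so its direction was not kept. Untreated spermatocytes had 352 of these peaks, against 345 after 30 min at 43 °C, 297 at 2 h and 7748 at 4 h of recovery. In testicular cells the ratios over all peaks kept their direction, at 0.703 with the N-terminal and 69.6 with the internal antibody. Each state had 1 library, and the difference between these sets was not tested. The header folder differs between the antibodies, and its part in the difference was not tested.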

How the results depend on the processing

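Of 208 recomputed values, 189 kept their direction, their side of the threshold or their size. With peaks of a score of at least 70, the median share outside background was 8.52% (23.8% with all peaks), loci in at least 3 libraries were 48 (221), the spermatocyte share in the untreated list was 0% (13.8%), and the median distance was 52507 bp (54195 bp). With the 1000 highest-scoring peaks of each list these were 10.1%, 34 loci and 5.63%, and the share for the internal antibody in testicular cells was 11.5% (23.6%). At 10 kb or more from a TSS the class was 21.4% of a list (23.7%) with a median distance of 68876 bp. With background of the same population only, the share outside background was 31.8%. Without the 2 long lists 1330 peaks outside background and 105 loci were left, and the heat shock difference was 0.53 on the log2 scale (exact test, adjusted p = 0.0659), opposite to -1.10. All heat-shocked libraries left were then above the untreated ones, so this adjusted p is the lowest that so few libraries allow.

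Against intergenic peaks in repeats, chosen after seeing the data, the difference in the share outside background was -3.36 points (exact test, adjusted p = 0.0025) and that in distance -26641 bp. Leaving out each library in turn, the 7 tested differences ranged as follows. The share outside background differed by -2.02 to -1.28 points (exact test, adjusted p = 0.0395 to 0.186, below 0.05 only without spermatocytes at 43 °C for 30 min), score by -8.51 to -7.27, width by 38.2 to 42 bp and distance by 11896 to 13445 bp. The class share differed by -2.25 to -1.32 points between SPEN and background and by -2.50 to -0.67 points between spermatocyte and testicular libraries. The heat shock difference ranged from -2.08 to 0.83. The cause of these shifts was not tested. Pairing libraries by heat state, added after seeing the data, gave 0.040 points between spermatocyte and testicular libraries, opposite to -1.62. Pairing each heat-shocked set with its untreated library gave -0.97 on the log2 scale (exact sign-flip, adjusted p = 1 for both, and 4 and 3 pairs cannot go below 0.125 and 0.25). No paired analysis by replicate was possible because each condition had 1 library. Unknown depth limits every comparison of list lengths.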
